A study of Mus musculus with 24 samples.

Results

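Untreated bone tumors of the TC2Ras prostate cancer model were compared between the end of the study (EOS) and day 14 after implantation (D14). The series holds 24 RNA sequencing libraries, and the members described here are the 5 control bone tumors, chosen by their labels alone: 3 harvested on D14 (mice 3, 5 and 7) and 2 at EOS (mice 9 and 13). All 5 came from male C57/BL6 mice of 8 to 10 weeks that received 100000 TC2Ras-Luc cells in each tibia, an empty vector in place of an IL-27 plasmid (pORF0 in the library names, whereas the study's methods name the delivered control plasmid pTSTA-ctrl), and the vehicle PVP in place of cabozantinib (cabo). The TC2Ras line was made from the TRAMP-C2 line of mouse prostate cancer cells by adding activated H-Ras, among other changes, and TC2Ras-Luc also carries firefly luciferase. The plasmid was delivered to the tibialis anterior muscle with ultrasound, and the vehicle was given by gavage. The EOS mice were those left to reach the ethical endpoint, and the labels give no day for them, so that tumor age, tumor burden and harvest date cannot be told apart in this comparison. The labels name no batch. The tumors grew from 1 cell line in different mice at each time, and which tibia a library came from is not given in the sources used here.

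The libraries held 70667089 to 75305934 counts on genes, and 19292 genes passed the filter on low counts. Levels are given below as CPM, a gene's counts for every 1000000 counts of the library, after TMM scaling over the 5 tumors, with D14 values in the order of mice 3, 5 and 7 and EOS values in the order of mice 9 and 13. CPM compares a gene between tumors and not different genes with each other, since it is not divided by gene length. Pearson's r of log2(CPM + 1) across genes was 0.987 to 0.992 between D14 tumors, 0.988 between the EOS tumors and 0.979 to 0.988 between the groups. The labelled tumor type was checked on Hras, with which the line was built, and on epithelial and prostate genes. Hras stood at 23.2, 19.2 and 19.6 CPM on D14 and at 16.7 and 19.2 CPM at EOS. The groups overlapped, and how far reads of the introduced copy were counted on this gene was not tested. Of 14 epithelial genes, 12 passed the filter. The keratin gene Krt8 stood at 45.05, 28.5 and 49.4 CPM on D14 and 20.95 and 27.9 CPM at EOS, and its partner Krt18 at 1.08, 1.75 and 1.66 CPM and 1.83 and 1.76 CPM. The adhesion gene Epcam stood at 1.65, 2.64 and 3.96 CPM and 1.96 and 2.48 CPM, and the basal keratin gene Krt5 had 0 counts in every tumor. Only 3 of 10 genes of the prostate list passed the filter, so that most prostate markers were at or near 0 in these tumors.

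T cells recognise antigen through a receptor made of variable alpha and beta chains held in a complex with the invariant CD3 chains and the zeta chain CD247, and pass the signal on through the kinases LCK and ZAP70. Helper T cells carry the coreceptor CD4, regulatory T cells express FOXP3, and repeatedly stimulated T cells carry inhibitory receptors such as PD-1. T cells and natural killer (NK) cells release interferon-gamma, which raises antigen presentation genes in tumor and host cells. In bone, tumors also meet osteoclasts, the cells that dissolve mineral and matrix.

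The test fitted for every gene was edgeR's quasi-likelihood test, with Benjamini-Hochberg adjustment over the 19292 genes. A gene was called changed at an adjusted p below 0.05. By this rule 20 genes fell from D14 to EOS, 0.104% of those tested, and no gene rose (0 of 19292, 0%). At an unadjusted p below 0.05, 1393 genes were lower (7.22%) and 1137 were higher (5.89%) at EOS, of which 1022 (5.3%) and 688 (3.57%) also differed by at least 1.5-fold, and DESeq2 called 565 genes lower (2.93%) and 307 higher (1.59%). Words such as fell, and calls named without a tool, refer to edgeR's test, and counts by DESeq2 are given beside those of the lists. The log2 fold changes of the 20 genes ran from -3.86 to -2.22, with a median of -2.72, beside a median of -0.0042 over all genes tested. All 20 calls are lost when any 1 of the 5 tumors is left out, and they are also lost in one fit of all 20 bone tumors of the series or without the filter on low counts, where the smallest adjusted p values of these fits ranged from 0.068 to 0.284. Their log2 fold changes stayed negative in each of those fits. With 2 tumors against 3, a two-sided exact permutation test of a single gene cannot give a p below 0.2.

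Of the 20 genes that fell, 11 were in the gene lists: 7 in the T cell list, 2 in the regulatory T cell and checkpoint list and 2 in the B cell and plasma cell list. The other 9 were Trbc1, Tox, Btla, Gimap3, Izumo1r, Ms4a4b, Igha, Ighg2c and Sostdc1. Of the 15 genes of the T cell list, 7 fell (13 were lower by DESeq2), 14 had both EOS tumors below all 3 D14 tumors (17.4% of all genes tested had this pattern), and the median log2 fold change of the list was -2.51. The single T cell gene whose groups overlapped was the coreceptor gene Cd8a, which lay below 0.5 CPM in every tumor. In bulk RNA, fewer cells of a type and less RNA per cell cannot be told apart, and the values below carry both.

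**Figure D1:**
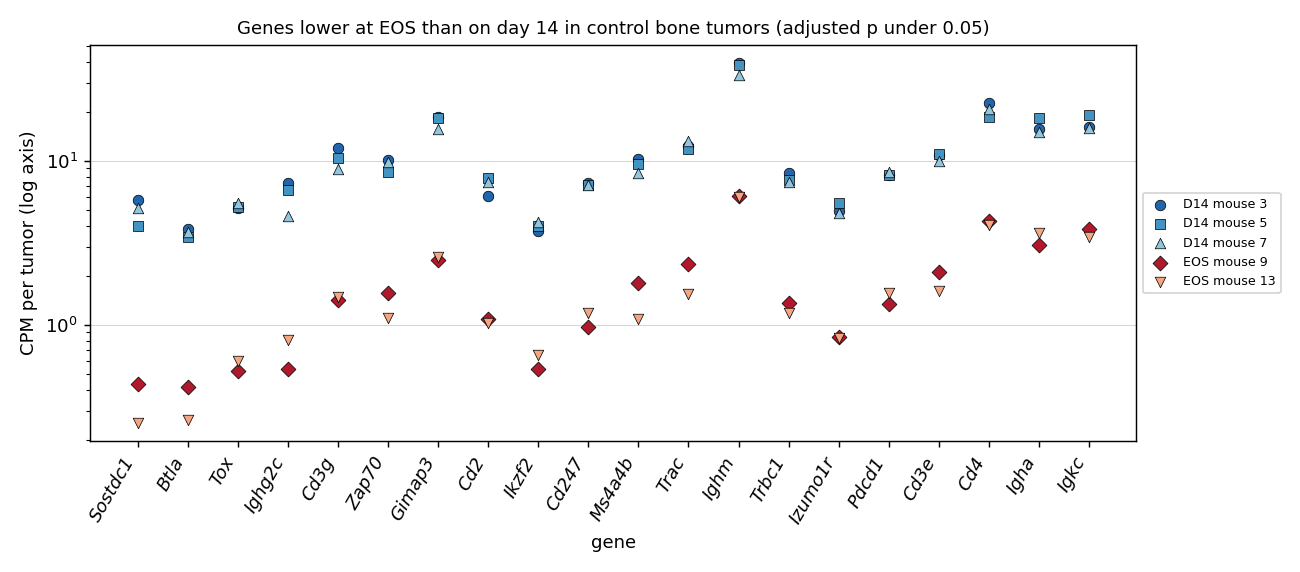
CPM (log axis) of the 20 genes that fell, ordered by log2 fold change from the most negative, in each of the 3 D14 and 2 EOS control bone tumors (1 point per tumor). In every gene both EOS tumors lie below all 3 D14 tumors, and the points of each harvest lie close together.

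The CD3 chains carry the signal of the receptor into the cell. Cd3e (chr9:44998740-45009627, minus strand, GRCm38) measured 10.8, 10.9 and 9.96 CPM on D14 and 2.10 and 1.60 CPM at EOS. The 3 D14 tumors were nearly equal, both EOS tumors were far lower, and the gene fell 5.70-fold (log2 fold change -2.51, SE 0.24, adjusted p = 0.0256). Cd3g, its neighbour on the same chromosome (chr9:44969572-44980431, minus strand), measured 11.9, 10.4 and 8.94 CPM on D14 and 1.42 and 1.48 CPM at EOS and fell 7.19-fold (log2 fold change -2.85, SE 0.25, adjusted p = 0.0256). The remaining CD3 gene, Cd3d, measured 2.50, 3.78 and 3.40 CPM against 0.493 and 0.544 CPM. It had the same order of tumors and a log2 fold change of -2.63, but did not pass the threshold (adjusted p = 0.0662).

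The antigen-binding chains followed the CD3 chains. Trac, the constant part of the alpha chain (chr14:54220521-54224206, plus strand), measured 12.3, 11.9 and 13.3 CPM on D14 and 2.36 and 1.55 CPM at EOS (log2 fold change -2.67, SE 0.27, adjusted p = 0.0269). For the beta chain, Trbc1 measured 8.38, 7.63 and 7.42 CPM on D14 and 1.36 and 1.19 CPM at EOS (log2 fold change -2.61, SE 0.25, adjusted p = 0.0256), with the limit that its reads may be shared with its near-identical copy Trbc2. Cd247, the zeta chain, measured 7.34, 7.12 and 7.16 CPM against 0.971 and 1.19 CPM (log2 fold change -2.74, SE 0.26, adjusted p = 0.0256); it overlaps the predicted gene Gm16565 on the same strand. In all of these genes the groups were well separated and the D14 tumors lay close together.

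Cd4, the coreceptor of helper T cells (chr6:124864692-124888221, minus strand), measured 22.6, 18.5 and 20.7 CPM on D14 and 4.30 and 4.07 CPM at EOS and fell 4.92-fold (log2 fold change -2.30, SE 0.19, adjusted p = 0.0256). Cd4 is also expressed by some myeloid cells in the mouse. The kinase gene Zap70 measured 10.2, 8.50 and 9.81 CPM on D14 and 1.56 and 1.10 CPM at EOS (log2 fold change -2.83, SE 0.27, adjusted p = 0.0256). Lck, the kinase that acts before it, measured 17.5, 15.4 and 13.4 CPM and 4.98 and 5.73 CPM and did not pass (log2 fold change -1.52, adjusted p = 0.0696). Cd2, an adhesion receptor of T and NK cells, fell from 6.14, 7.89 and 7.42 CPM to 1.09 and 1.03 CPM (log2 fold change -2.75, SE 0.27, adjusted p = 0.0256). The costimulatory receptors Cd28 and Icos lay at between 3.81 and 4.23 CPM and between 5.63 and 6.29 CPM on D14, and at 0.811 and 0.963 CPM and 1.32 and 0.753 CPM at EOS. Their log2 fold changes of -2.20 and -2.50 were close to those of genes that passed, with adjusted p values of 0.0644 and 0.0644.

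Of the 12 genes of the regulatory T cell and checkpoint list, 2 fell by edgeR and 8 were lower by DESeq2. In 9 of them both EOS tumors lay below all D14 tumors (17.4% of all genes), and the median log2 fold change was -1.84. Pdcd1, which encodes PD-1, measured 8.18, 8.24 and 8.60 CPM on D14 and 1.35 and 1.56 CPM at EOS (log2 fold change -2.52, SE 0.24, adjusted p = 0.0256). Ikzf2, the transcription factor Helios of regulatory T cells, measured 3.76, 4.03 and 4.25 CPM on D14 and 0.536 and 0.656 CPM at EOS (log2 fold change -2.75, SE 0.31, adjusted p = 0.0455). Foxp3, their lineage factor, stood at 4.04, 3.83 and 4.18 CPM on D14 and at 0.942 and 0.907 CPM at EOS. Its D14 values were nearly the same in 3 mice and its adjusted p was 0.0644. Not every inhibitory gene was lower: Cd274, which encodes the PD-1 ligand PD-L1, measured 14.04, 16.5 and 14.5 CPM on D14 and 20.5 and 9.66 CPM at EOS, with overlapping groups and a log2 fold change of 0.01.

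Other genes that fell lay outside the lists, and those below beyond Tox and Gimap3 were named after their values were seen, as the remaining calls. Tox, a transcription factor of persistently stimulated T cells, measured 5.14, 5.23 and 5.55 CPM on D14 and 0.522 and 0.600 CPM at EOS (log2 fold change -3.24, SE 0.29, adjusted p = 0.0256). Btla, an inhibitory receptor of T and B cells, measured 3.85, 3.44 and 3.69 CPM against 0.420 and 0.265 CPM (log2 fold change -3.41, SE 0.37, adjusted p = 0.0375). Gimap3, a GTPase gene of lymphocyte survival, measured 18.6, 18.1 and 15.6 CPM against 2.48 and 2.58 CPM (log2 fold change -2.79, SE 0.21, adjusted p = 0.0254). The D14 and EOS tumors did not overlap in any of the 3. Izumo1r, which encodes the folate receptor 4 of regulatory T cells, and Ms4a4b, a membrane protein of T cells, also fell, with log2 fold changes of -2.60 and -2.70 (adjusted p = 0.0374 and 0.0455). Sostdc1, a secreted antagonist of BMP and Wnt signals, measured 5.79, 4.0 and 5.16 CPM on D14 and 0.435 and 0.251 CPM at EOS (log2 fold change -3.86, SE 0.40, adjusted p = 0.0320). It had the most negative log2 fold change of the 20 called genes.

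Immunoglobulin genes were also among the calls. Of the 11 tested genes of the B cell and plasma cell list (13 listed), 2 fell by edgeR and 4 were lower by DESeq2. In 9 of them both EOS tumors lay below all D14 tumors (17.4% of all genes), and the median log2 fold change was -1.76. Ighm, the constant region of IgM (chr12:113418558-113422730, minus strand), measured 39.7, 38.5 and 33.3 CPM on D14 and 6.10 and 6.0 CPM at EOS and fell 6.14-fold; it had the smallest p of all genes (log2 fold change -2.62, SE 0.17, adjusted p = 0.0212). Igkc, the kappa light chain, measured 16.1, 19.1 and 15.9 CPM and 3.87 and 3.45 CPM (log2 fold change -2.22, SE 0.21, adjusted p = 0.0256). The heavy chains of other classes fell too: Igha measured 15.7, 18.2 and 15.1 CPM and 3.09 and 3.64 CPM (log2 fold change -2.28, SE 0.21, adjusted p = 0.0256), and Ighg2c, whose reads may be shared with related gamma chain genes, measured 7.34, 6.63 and 4.64 CPM and 0.536 and 0.809 CPM (log2 fold change -3.20, SE 0.36, adjusted p = 0.0461). Jchain, which joins secreted IgM and IgA, stood at 4.05, 5.0 and 3.54 CPM and 0.840 and 0.865 CPM (adjusted p = 0.0662).

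Of the 14 genes of cytotoxic and NK cells, 0 passed by edgeR and 6 were lower by DESeq2. All 14 had negative log2 fold changes with a median of -1.89, and 11 had both EOS tumors below all D14 tumors (17.4% of all genes). Nkg7, a granule protein of cytotoxic lymphocytes, measured 4.08, 3.58 and 4.53 CPM on D14 and 0.724 and 0.516 CPM at EOS (log2 fold change -2.71, adjusted p = 0.0519). Ifng itself was rare, with 61, 88 and 56 counts in the D14 libraries and 6 and 4 counts in the EOS libraries. Both EOS libraries were more than 8 times below every D14 library, and the adjusted p was 0.108. Prf1, which encodes the pore-forming protein perforin, measured 9.31, 11.4 and 21.9 CPM and 11.4 and 9.29 CPM and overlapped between the groups.

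**Figure D2:**
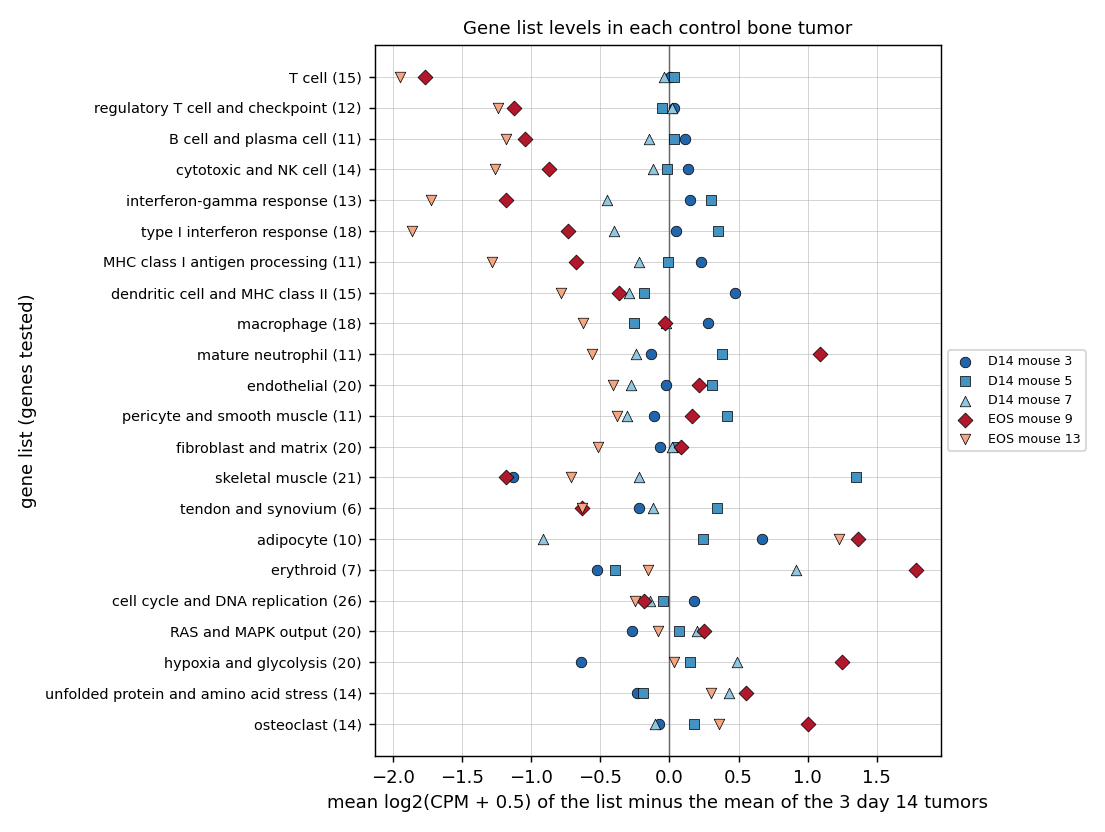
Mean log2(CPM + 0.5) over the tested genes of 22 gene lists in each control bone tumor, relative to the mean of the 3 D14 tumors (vertical line at 0); 1 point per tumor, with the number of genes in brackets. The 2 EOS tumors lie to the left of all D14 tumors from the T cell list down to the dendritic cell and MHC class II list. They also do so in the tendon and synovium list and the cell cycle and DNA replication list. In the adipocyte and osteoclast lists they lie to the right of all D14 tumors. D14 mouse 5 stands apart in skeletal muscle and EOS mouse 9 in neutrophil, erythroid and hypoxia genes.

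Interferon response genes are described with a stretch of their promoters, since the GAAA repeat on which interferon regulatory factors bind was found by letter search in many of them. The motif GAAANNGAAA was searched on both strands of the 250 bases before the start site of the RefSeq promoters (GRCm38.p6). It was found in 7 of the 10 interferon-gamma response genes with a promoter in the table (13 listed), in 8 of 14 type I interferon response genes (18 listed), in 1 of 9 MHC class I genes (11 listed) and in 0 of 8 T cell genes (15 listed), beside 2.75% of the 12634 tested genes with a promoter. The windows of 30 bases below are written on the strand of the gene, with the match in capitals; a match that begins with TTTC is the repeat read from the opposite strand. They show members of each list with the motif. A match describes these letters and is no proof of binding.
Gbp2 (chr3:142620594-142620623, plus strand): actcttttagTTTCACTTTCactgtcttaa
Igtp (chr11:58199512-58199541, plus strand): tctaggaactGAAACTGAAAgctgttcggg
Irgm1 (chr11:48871425-48871454, minus strand): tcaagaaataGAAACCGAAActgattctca
Ifit3 (chr19:34583397-34583426, plus strand): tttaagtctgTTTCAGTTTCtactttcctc
Oas3 (chr5:120777715-120777744, minus strand): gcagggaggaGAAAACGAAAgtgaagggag
B2m (chr2:122147538-122147567, plus strand): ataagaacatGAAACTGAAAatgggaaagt

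In the interferon-gamma response list, all 13 genes had negative log2 fold changes, with a median of -1.96. In 10 of them both EOS tumors lay below all D14 tumors (17.4% of all genes). By edgeR 0 of them passed the adjusted threshold, and by DESeq2 9 were lower. Gbp2, a guanylate-binding protein that acts against intracellular microbes, measured 40.4, 41.8 and 23.2 CPM on D14 and 9.56 and 4.28 CPM at EOS (log2 fold change -2.34, SE 0.42, adjusted p = 0.123). Igtp, an immunity-related GTPase that overlaps Irgm2 on the same strand, measured 19.8, 20.04 and 13.8 CPM and 6.33 and 6.82 CPM (log2 fold change -1.44, SE 0.23, adjusted p = 0.105). Reads of the guanylate-binding proteins can be shared between family members. In both genes D14 mouse 7 was the lowest of its group and still more than 2 times above both EOS tumors. Cxcl9, a chemokine that draws T cells, measured 28.9, 22.7 and 7.31 CPM and 2.97 and 0.544 CPM (adjusted p = 0.202). Its receptor gene Cxcr3, carried by activated T and NK cells, stood at 2.84, 3.01 and 2.50 CPM and 0.406 and 0.726 CPM (adjusted p = 0.117). The groups did not overlap in either gene, and Cxcl9 also varied among the D14 tumors.

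The motif TTCNNNGAA of interferon-gamma activated sites reads the same on both strands. It was found in 4 of the same 10 interferon-gamma response promoters and in 1 of 8 T cell promoters (12.5%), beside 6.09% of all tested genes with a promoter.

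In the type I interferon response list, all 18 genes had negative log2 fold changes, with a median of -1.19. In 15 of them both EOS tumors lay below all D14 tumors (17.4% of all genes). None passed by edgeR and 10 were lower by DESeq2. Ifit3, an antiviral effector, measured 26.7, 32.3 and 16.9 CPM on D14 and 8.20 and 5.44 CPM at EOS (log2 fold change -1.89, adjusted p = 0.123). Irf7, the transcription factor that amplifies type I interferon, measured 48.2, 47.98 and 23.04 CPM and 14.997 and 3.29 CPM (adjusted p = 0.259). The EOS tumors differed from each other here: mouse 13 was below mouse 9 in Irf7 and in the mean of the list. Without mouse 9 the list median was -2.31 and without mouse 13 it was -0.69. Isg15, an ubiquitin-like modifier, measured 14.3, 22.1 and 10.8 CPM and 13.9 and 5.20 CPM and overlapped between the groups.

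MHC class I presents peptides cut by the immunoproteasome and carried by the TAP transporter. All 11 genes of this list had negative log2 fold changes, with a median of -0.91. In 10 of them both EOS tumors lay below all D14 tumors (17.4% of all genes). None passed by edgeR and 5 were lower by DESeq2. Nlrc5, the transactivator of class I genes, measured 14.1, 15.2 and 10.3 CPM on D14 and 4.35 and 5.51 CPM at EOS (log2 fold change -1.42, SE 0.25, adjusted p = 0.123). The transporter gene Tap1 measured 28.02, 28.5 and 21.996 CPM and 11.1 and 4.19 CPM (log2 fold change -1.78, adjusted p = 0.194). The light chain B2m was abundant at both times, with 539, 369 and 509 CPM on D14 and 364 and 261 CPM at EOS (log2 fold change -0.60, adjusted p = 0.327). D14 mouse 5 was within 6 CPM of EOS mouse 9 in B2m, so that the separation was narrow in this gene. Without EOS mouse 13 the median of the list was -0.47.

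Of the 15 genes of the dendritic cell and MHC class II list, 10 had both EOS tumors below all D14 tumors (17.4% of all genes). In 2 both lay above (16.1% of all genes), and the median was -0.99 (-0.52 without D14 mouse 3). By edgeR 0 of them passed, and DESeq2 called 1 lower. H2-Aa, a class II chain of antigen-presenting cells, measured 42.7, 17.1 and 20.4 CPM on D14 and 14.9 and 6.08 CPM at EOS (adjusted p = 0.339). C1qa, a complement gene of resident macrophages, measured 224, 79.7 and 98.8 CPM and 63.6 and 47.1 CPM (adjusted p = 0.305). In both genes D14 mouse 3 was more than 2 times above every other tumor. Mrc1, the mannose receptor of macrophages, was graded more evenly, at 137, 91.7 and 72.9 CPM and 39.6 and 26.6 CPM (log2 fold change -1.60, adjusted p = 0.138). The general macrophage genes Csf1r and Cd68 overlapped between the groups, with 207, 91.5 and 83.9 CPM and 87.9, 59.2 and 86.7 CPM on D14 and 164 and 73.6 CPM and 113 and 73.1 CPM at EOS. Over the whole macrophage list the median log2 fold change was -0.62, with 5 of 18 genes having both EOS tumors below all D14 tumors (17.4% of all genes tested had this pattern). The median was -0.28 without D14 mouse 3 and -1.25 without EOS mouse 9, and DESeq2 called 2 of the 18 lower.

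**Figure D3:**
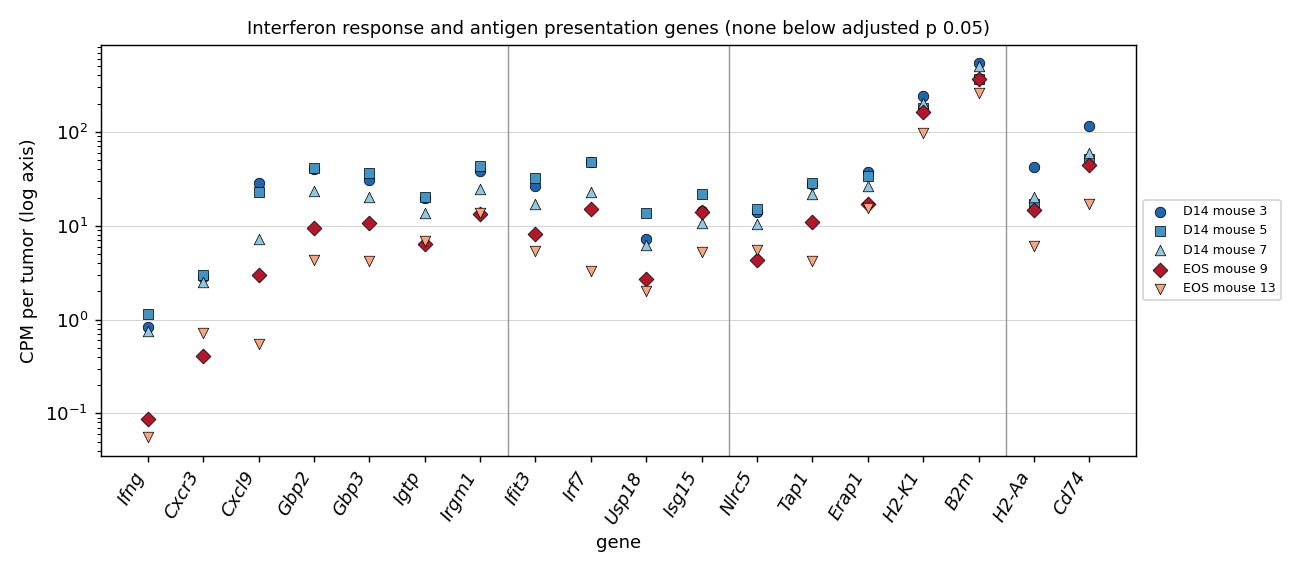
CPM (log axis) of 18 genes in each control bone tumor, from left to right in 4 blocks parted by vertical lines: interferon-gamma and its response, the type I response, MHC class I, and MHC class II. In 17 of them, all but Isg15, the 2 EOS tumors lie below all 3 D14 tumors.

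The endothelial, RAS and MAPK output and mesenchymal transition lists had medians near 0. In the endothelial list 1 of 20 genes had both EOS tumors below all D14 tumors (17.4% of all genes) and 0 had both above (16.1%). The median log2 fold change was -0.15, between -0.49 without EOS mouse 9 and 0.22 without EOS mouse 13, with 0 calls by edgeR or DESeq2. Pecam1, an adhesion molecule of endothelial cells, measured 64.5, 62.99 and 47.8 CPM on D14 and 72.3 and 41.96 CPM at EOS. Both EOS values lay outside the D14 range, mouse 9 above and mouse 13 below it. The list of RAS and MAPK output genes had a median of 0.03 and that of mesenchymal transition genes 0.03. DESeq2 called 1 gene of the first higher and 1 of the second lower. The Wnt and Notch list had a median of -0.45, between -0.47 without D14 mouse 3 and -0.22 without D14 mouse 7. Of its 14 genes, 5 had both EOS tumors below all D14 tumors (17.4% of all genes) and 2 had both above (16.1% of all genes). By edgeR 0 of them passed, and 1 was lower by DESeq2. Of the 26 cell cycle and DNA replication genes, 21 had negative log2 fold changes with a median of -0.22 (-0.14 without D14 mouse 3), and 9 had both EOS tumors below all D14 tumors, beside 17.4% of all genes. By edgeR 0 of them passed, and DESeq2 called 1 lower. Mki67, the proliferation marker, measured 226, 242 and 175 CPM and 219 and 182 CPM, with overlapping groups. Rrm2, a subunit of the enzyme that makes deoxynucleotides, measured 106, 81.4 and 75.4 CPM and 58.2 and 58.1 CPM (log2 fold change -0.59, adjusted p = 0.244).

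No gene rose by edgeR's adjusted test, and the genes with higher values at EOS are given by their levels. In the osteoclast list 7 of 14 had both EOS tumors above all D14 tumors (16.1% of all genes tested had this pattern) and 0 had both below. The median log2 fold change was 0.56 (0.44 without EOS mouse 9 and 0.86 without D14 mouse 5). DESeq2 called 3 of the 14 higher. Acp5, which encodes the tartrate-resistant acid phosphatase used as an osteoclast stain, measured 74.2, 93.1 and 84.99 CPM on D14 and 404 and 192 CPM at EOS (log2 fold change 1.82, SE 0.29, adjusted p = 0.104; DESeq2 adjusted p = 6.95e-07). Ctsk, the protease that digests bone collagen, measured 105, 119 and 92.5 CPM and 324 and 181 CPM (log2 fold change 1.26, adjusted p = 0.143). Atp6v0d2, a subunit of the proton pump, measured 10.8, 12.6 and 17.9 CPM and 58.7 and 26.4 CPM (log2 fold change 1.63, adjusted p = 0.183). EOS mouse 9 was the highest tumor in all 3 genes, and mouse 13 still lay above the D14 tumors.

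The remaining osteoclast genes varied. Calcr, the calcitonin receptor, had the highest log2 fold change of the list at 1.91, from levels of 0.290, 0.0523 and 0.218 CPM on D14 and 0.811 and 0.600 CPM at EOS (adjusted p = 0.350). Clcn7, the chloride channel of the resorbing membrane, measured 52.2, 62.4 and 63.7 CPM on D14 and 79.2 and 78.8 CPM at EOS (log2 fold change 0.41, adjusted p = 0.288). The lineage factor Nfatc1 measured 54.1, 52.1 and 46.4 CPM and 85.1 and 51.5 CPM, and mouse 13 lay within the D14 range. Tnfsf11, which encodes the osteoclast-inducing cytokine RANKL, stood at 4.27, 4.29 and 5.19 CPM and 9.14 and 5.53 CPM (adjusted p = 0.370). Mmp9, a matrix protease of osteoclasts, macrophages and neutrophils, measured 109, 199 and 88.1 CPM and 798 and 234 CPM (log2 fold change 1.97, adjusted p = 0.221). Its EOS values differed more than 3 times from each other, and mouse 13 was close to D14 mouse 5. Osteoblast genes could hardly be read, since 8 of 16 did not pass the filter, and the 8 that did had a median log2 fold change of 0.03 and 0 calls by edgeR or DESeq2.

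Of the genes induced by amino acid shortage and unfolded proteins, 6 of 14 had both EOS tumors above all D14 tumors (16.1% of all genes). In 1 gene both lay below (17.4% of all genes). The median log2 fold change of the list was 0.40 (0.27 without EOS mouse 9 and 0.64 without D14 mouse 7). DESeq2 called 3 of the 14 higher. Many of them are targets of the transcription factor ATF4. The motif TGATGNAA, a composite site of ATF4 and C/EBP factors, was searched in the same way and was found in 5 of the 14 promoters, beside 2.11% of all tested genes with a promoter. A pair of members with the motif is shown, again on the gene's strand with the match in capitals (TTGCATCA is a match on the opposite strand).
Asns (chr6:7693214-7693243, minus strand): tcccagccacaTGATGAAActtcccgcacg
Chac1 (chr2:119351038-119351067, plus strand): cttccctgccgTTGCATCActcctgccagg

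Trib3, a pseudokinase that feeds back on ATF4, measured 18.7, 25.9 and 28.8 CPM on D14 and 58.9 and 55.1 CPM at EOS (log2 fold change 1.22, SE 0.20, adjusted p = 0.106; DESeq2 adjusted p = 1.54e-05). Asns, asparagine synthetase, measured 125, 121 and 158 CPM and 183 and 219 CPM (log2 fold change 0.58, adjusted p = 0.234). Chac1, which degrades glutathione, measured 8.0, 7.64 and 16.4 CPM and 19.7 and 20.7 CPM (adjusted p = 0.335). Trib3 separated the groups widely, whereas D14 mouse 7 came near the EOS tumors in Asns and Chac1. Ddit3, the stress factor CHOP, measured 19.7, 30.7 and 102 CPM and 144 and 65.7 CPM, with D14 mouse 7 between the EOS tumors. The chaperone gene Hspa5 did not follow, with 1052, 929 and 1789.5 CPM and 1141 and 1405 CPM.

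**Figure D4:**
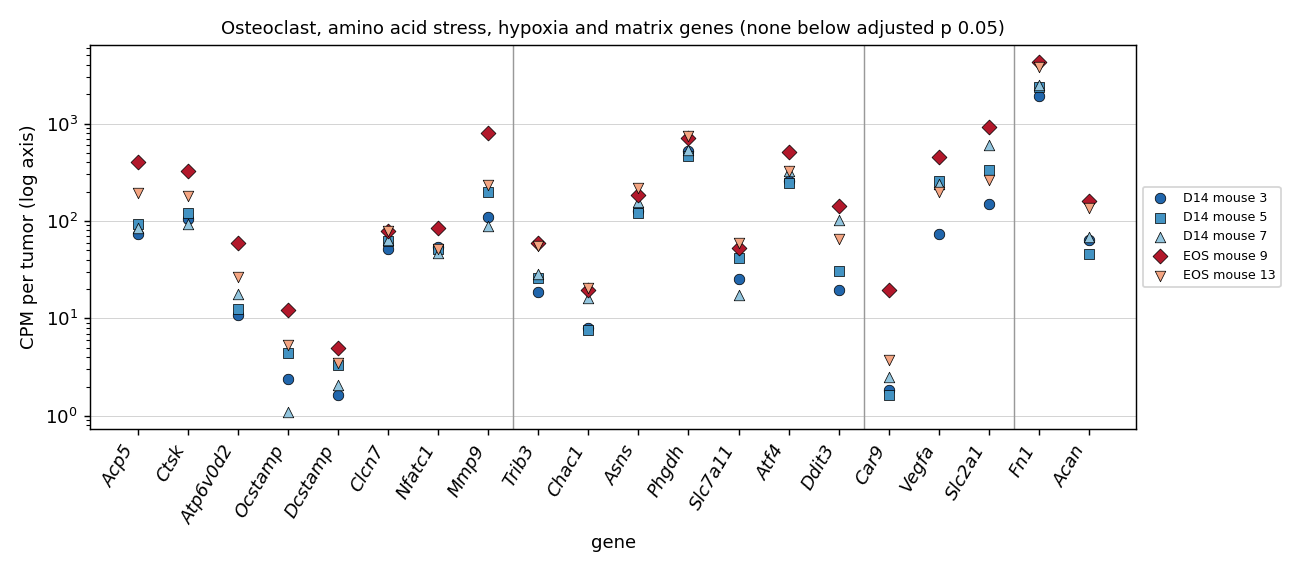
CPM (log axis) of 20 genes in each control bone tumor, in 4 blocks parted by vertical lines: osteoclast genes and Mmp9, amino acid stress genes, hypoxia genes, and the matrix genes Fn1 and Acan. EOS mouse 9 is the highest tumor in every gene of the osteoclast and hypoxia blocks, and the EOS tumors lie above all D14 tumors in Acp5, Ctsk, Trib3, Fn1 and Acan.

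A pair of matrix genes had the same direction. Acan, the proteoglycan aggrecan of the chondrocyte list, measured 64.1, 46.1 and 67.9 CPM on D14 and 160.1 and 137 CPM at EOS (log2 fold change 1.32, SE 0.19, adjusted p = 0.0705). Fn1, fibronectin, measured 1901, 2377 and 2466 CPM and 4269.9 and 3765 CPM (log2 fold change 0.84, adjusted p = 0.140). In both genes the EOS tumors lay well above all D14 tumors. Of the 12 chondrocyte genes 6 were tested, and 2 of these had both EOS tumors above all D14 tumors (16.1% of all genes). In 2 the log2 fold change was negative, 0 passed by edgeR and DESeq2 called 1 higher. The median of the chondrocyte list was 0.44, between -0.02 without D14 mouse 3 and 0.83 without D14 mouse 5. In the fibroblast and matrix list 13 of 20 log2 fold changes were negative, with a median of -0.25 (-0.67 without EOS mouse 9 and -0.03 without EOS mouse 13). Of the 20, 6 had both EOS tumors below all D14 tumors (17.4% of all genes) and 2 had both above (16.1% of all genes). By edgeR 0 passed, and DESeq2 called 0 lower and 2 higher. Col3a1, a fibrillar collagen that overlaps the predicted gene Gm47302, measured 2774, 3419 and 2981 CPM and 2371 and 1827 CPM (log2 fold change -0.54, adjusted p = 0.280).

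Tissue around the tumor differed between single libraries. Skeletal muscle genes were highest in D14 mouse 5, where Acta1, the actin of skeletal muscle, measured 0.841, 45.3 and 7.32 CPM in the D14 tumors and 1.68 and 2.68 CPM in the EOS tumors. The muscle list had a median log2 fold change of -2.53 and -0.90 without that tumor, and DESeq2 called 2 of its 21 genes lower. With the mean level of the muscle list as a covariate, the 20 called genes had log2 fold changes between -4.09 and -2.13, and 0 of them passed (smallest adjusted p = 0.163). Of the 6 tested tendon and synovium genes, 0 passed by edgeR and 3 were lower by DESeq2. In 4 of them both EOS tumors lay below all D14 tumors (17.4% of all genes), and in 1 both lay above (16.1% of all genes). Prg4, the lubricant of synovium and cartilage, measured 1.50, 2.33 and 1.16 CPM and 0.232 and 0.251 CPM (adjusted p = 0.123), and Fmod, a tendon proteoglycan, measured 0.910, 1.92 and 0.803 CPM and 0.0869 and 0.112 CPM (adjusted p = 0.125). Chad, a cartilage and tendon protein, had the opposite order, at 0, 0.131 and 0.436 CPM and 1.06 and 0.572 CPM (adjusted p = 0.491). All 10 adipocyte genes had positive log2 fold changes with a median of 1.20, which was 0.91 without D14 mouse 7 and 2.09 without D14 mouse 3, and none passed by edgeR or by DESeq2. Hemoglobin genes did not separate the groups, with Hba-a1 at 16.9, 24.3 and 65.4 CPM and 124 and 28.95 CPM. The part of these tissues in the lymphocyte and osteoclast values was not tested beyond the muscle covariate.

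The tumors of each harvest also differed among themselves. In the hypoxia and glycolysis list 19 of 20 log2 fold changes were positive with a median of 0.63, which was -0.04 without EOS mouse 9 and 1.09 without EOS mouse 13. Only 1 of the 20 genes had both EOS tumors above all D14 tumors (16.1% of all genes), 0 passed by edgeR and 1 was higher by DESeq2. Car9, a hypoxia-induced carbonic anhydrase, measured 1.83, 1.64 and 2.48 CPM on D14 and 19.7 and 3.74 CPM at EOS, and Cxcl2, a neutrophil chemokine, measured 0.483, 1.84 and 0.694 CPM and 20.995 and 0.349 CPM. Nos2, the inducible nitric oxide synthase of activated macrophages, measured 3.68, 5.13 and 3.84 CPM and 29.04 and 2.30 CPM. In all 3 genes mouse 9 was far above mouse 13, and in Cxcl2 and Nos2 mouse 13 lay below all D14 tumors. On D14, mouse 7 stood apart in Hspb1, which encodes a small heat shock protein, at 1.38, 11.4 and 252 CPM. The T cell list did not share this spread: its mean log2(CPM + 0.5) was 2.60, 2.63 and 2.56 in the D14 tumors and 0.83 and 0.65 in the EOS tumors.

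IL-27 is a cytokine made of the subunits IL27 and EBI3, and the control mice received a vector without it. Il27 was at 17, 18 and 3 counts on D14 and 8 and 0 counts at EOS, near the limit of detection in every tumor. Ebi3 measured 4.37, 1.37 and 1.70 CPM and 1.10 and 0.949 CPM (adjusted p = 0.393), and the receptor gene Il27ra measured 8.0, 7.0 and 6.37 CPM and 3.84 and 3.63 CPM (log2 fold change -0.93, adjusted p = 0.202). Stat4, a signal transducer of T and NK cells that overlaps the predicted gene Gm28177, measured 5.16, 3.69 and 4.26 CPM and 1.14 and 0.865 CPM (log2 fold change -2.12, adjusted p = 0.0915). The groups did not overlap in Il27ra and Stat4.

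The change from D14 to EOS in the controls was set against the same change in mice given IL-27 plasmid, cabo or both (3 D14 and 2 EOS tumors in each), by the interaction term of a fit of all 20 bone tumors. These comparisons share the 5 control tumors. No gene differed in its change between IL-27 and control (0 of 21563, 0%; 417 at an unadjusted p below 0.05, 1.93%; 3 by DESeq2), and 17 genes (0.0788%; 887 unadjusted, 4.11%) differed for cabo and 17 (0.0788%; 1970 unadjusted, 9.14%) for IL-27 with cabo. Without control mouse 3, 5, 9 or 13 the count for cabo was 7, 8, 9 and 11, and for IL-27 with cabo it was 10, 9, 10 and 4. Without control mouse 7 both counts lay above all of these. No gene of the T cell, B cell and plasma cell or interferon-gamma response lists was among the genes that passed in the fit of all 20 tumors. For Cd3e the difference was 1.14 (SE 0.99) for IL-27 minus control, -0.83 (SE 1.02) for cabo minus control and 0.19 (SE 1.05) for the combination on the log2 scale, so that changes of a similar size or clearly smaller ones in the treated mice, as well as larger ones, lie within the error. The T cell list had a median log2 fold change from D14 to EOS of -1.25 with IL-27, -2.46 with cabo and -1.61 with both, each from a fit of that treatment alone. The median of the B cell and plasma cell list was -1.76 in controls, 0.01 with IL-27, -0.85 with cabo and -1.26 with both. The median of the interferon-gamma response list was -1.96 in controls, -1.30 with IL-27, -1.50 with cabo and -0.04 with both. The median of the type I interferon response list was -1.19 in controls, -0.71 with IL-27, -1.06 with cabo and 0.41 with both. At an unadjusted p below 0.05, 3 of 12 genes of the B cell and plasma cell list differed in their change for IL-27, beside 1.93% of all genes. For IL-27 with cabo, 3 of 13 interferon-gamma response genes and 8 of 18 type I interferon response genes differed, beside 9.14% of all genes.

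The levels show where the D14 controls stood. With TMM scaling over the 20 bone tumors, Cd3e was 10.5 ± 0.527 CPM (SD, n = 3) in D14 controls, 3.97 ± 4.38 CPM (SD, n = 3) with IL-27, 2.70 ± 0.564 CPM (SD, n = 3) with cabo and 1.62 ± 0.0956 CPM (SD, n = 3) with both. One of the 3 IL-27 tumors reached 9.01 CPM, near the controls, and the lowest was at 1.16 CPM. At EOS the means were 1.83 CPM in controls, 1.53 CPM with IL-27, 0.263 CPM with cabo and 0.323 CPM with both (n = 2 each). The order of the D14 groups was not tested here. Of the genes whose change differed, 3 of 17 for cabo and 4 of 17 for IL-27 with cabo were in the endothelial list. Among them, Flt4, a receptor for lymphangiogenic growth factors, measured 17.5, 26.7 and 15.7 CPM on D14 and 14.5 and 15.6 CPM at EOS in controls, and its log2 change was higher by 4.74 with cabo (SE 0.43, adjusted p = 1.39e-04) and by 4.00 with both (SE 0.42, adjusted p = 5.81e-04).

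**Figure D5:**
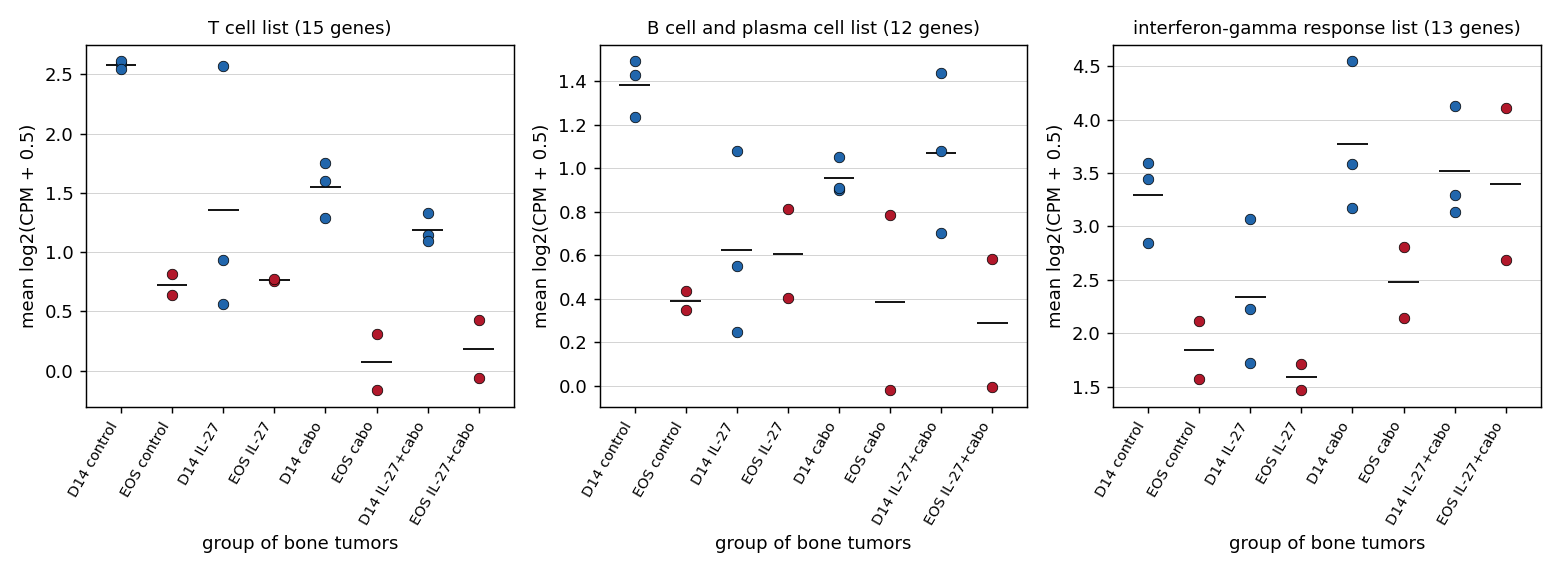
Mean log2(CPM + 0.5) of the T cell, B cell and plasma cell, and interferon-gamma response lists in each of the 20 bone tumors by group (D14 blue, EOS red; horizontal bars are group means, n = 3 on D14 and 2 at EOS). In the T cell plot the D14 control tumors lie at 2.59, 2.61 and 2.54 beside 1 D14 IL-27 tumor at 2.57, and the EOS control tumors lie at 0.64 and 0.82.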

How the data were processed

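RNA of bulk bone tumors, 1 library a mouse, was sequenced as stranded poly(A) libraries. Per the study's methods the authors trimmed reads with cutadapt and used HISAT2 and StringTie, and the submitters' processing notes also name FastQC, DESeq2 and a human genome build, so the build and annotation behind this mouse table are uncertain. The authors deposited raw counts per gene, without normalization. Of 55401 Ensembl identifiers, 55141 were matched to GENCODE M21 (GRCm38) for symbols and coordinates. In the 5 tumors, 31% to 32.7% of the values from 1 to 20 were multiples of 4, so the test was repeated on counts divided by 4.

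Computed here, with edgeR 4.0.16 in R 4.3.3, were the filter on low counts (filterByExpr), TMM scaling, the quasi-likelihood test on the 5 control bone tumors, and the interaction terms on 20 bone tumors. Adjusted p values are Benjamini-Hochberg values over all genes tested. DESeq2 1.42.0, other scalings, no filter, removal of the GC and length trend by spline offsets, a muscle covariate, the study's limits on p and fold change, and leaving out each tumor were the alternatives. The fits were tested on simulated data. Named were the 12 called genes lowest in p for each direction if the groups did not overlap, members of the gene lists, the 5 leading genes of each interaction, and Il27, Ebi3, Hras and a gene that is not reported here; a few calls beyond these were named after their values were seen. The tumors, lists and tests were chosen with earlier results of these data known. Promoter sequences came from RefSeq (GRCm38.p6). Subcutaneous tumors were left out.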

Additional observations from a re-analysis of the deposited data

Results flagged for a closer look

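The change from D14 to EOS differed between treated and control mice by the interaction test of edgeR's quasi-likelihood fit of all 20 bone tumors, with Benjamini-Hochberg adjustment. For cabo minus control 17 genes passed (7 to 16 without 1 control tumor), and 17 passed for IL-27 with cabo minus control (4 to 19); both comparisons share the control tumors. The genes given are the 5 with the smallest p in each comparison and those of the gene lists. In the first, where all 17 changes were higher than in controls, the change of Ephb1, an ephrin receptor, was higher than in controls by 4.77 on the log2 scale, that of Flt4 by 4.74, Robo1 by 3.87, Emcn, a sialomucin of capillary and venous endothelium, by 3.60, Dll4, a Notch ligand of sprouting vessels, by 3.35 and Ednrb, an endothelin receptor, by 3.03 (SE 0.36 to 0.50, adjusted p from 1.39e-04 to 0.00377). In the second, 15 changes were higher and 2 were lower (Lrrc39 with a difference of -2.54 and the predicted gene Gm37829 with -3.35, both named after their values were seen). There the change of Ephb1 was higher by 4.95, that of Dll4 by 4.03, Flt4 by 4.00, Robo1 by 3.39, Emcn by 3.14, Kdr, the main receptor for vascular endothelial growth factor, by 3.09 and Ednrb by 2.68 (SE 0.36 to 0.52, adjusted p from 5.81e-04 to 0.0343). In the controls alone none of these genes passed the adjusted test. Dll4 measured 12.1, 12.2 and 13.3 CPM on D14 and 17.9 and 8.85 CPM at EOS, and Emcn measured 20.7, 19.4 and 13.95 CPM and 16.6 and 12.5 CPM. Groups of 2 and 3 tumors were too small for a test of single outlying values.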

How the results depend on the processing

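No paired analysis was possible because the compared groups share no mouse number. The 20 genes lower and 0 higher at EOS became 565 and 307 with DESeq2, 31 and 0 with upper quartile scaling, 22 and 1 with the GC and length trend removed, and 22 and 1 with counts divided by 4; with RLE scaling they stayed at 20 and 0. Each of these 5 fits called all 20 genes that fell. Without the filter on low counts, in one fit of 20 tumors, and with the muscle score as covariate there were 0 lower and 0 higher calls, and likewise without any 1 tumor (range 0 to 0 lower, 0 to 0 higher); leaving out a tumor leaves 4 in the fit, and for EOS the lone tumor is assumed to vary like the other group. The study's limits without adjustment gave 1022 lower and 688 higher genes at a fold change of 1.5 and 529 and 223 at a log2 fold change of 1.5. Genes with a different change numbered 3 by DESeq2 for IL-27 (0 by edgeR, 0 to 1 without 1 control tumor), 89 for cabo (17 by edgeR, 7 to 16) and 197 for both (17, 4 to 19). Among the named genes, log2 fold changes turned sign only in genes that had not passed the adjusted test. Without 1 tumor they ranged as follows: Cd274 -0.64 to 0.46, Cd68 -0.096 to 0.54, Cd8a -7.43 to 0.20, Csf1r -0.79 to 0.44, Cxcl2 -1.53 to 4.38, Epcam -0.57 to 0.053, Hba-a1 -0.30 to 1.90, Hspa5 -0.16 to 0.37, Hspb1 -3.13 to 1.40, Mki67 -0.24 to 0.037, Nos2 -0.88 to 2.79, Pecam1 -0.48 to 0.31, Prf1 -0.69 to 0.0045. Other turns were Acta1 at 0.32 with the muscle covariate, Cd274 at -0.0087 with upper quartile scaling, Cd68 at -0.0023 with the muscle covariate, Hspa5 at -0.083 with the muscle covariate. The cause of these moves was not tested. With 5 tumors, the number of tumors limits the precision of every value.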

Other observations

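Beyond the groups above, a chemokine and an adhesion gene had both EOS tumors below all D14 tumors, neither of them past the adjusted threshold of edgeR's test. Ccl12, a monocyte chemokine, measured 18.5, 11.3 and 6.04 CPM on D14 and 1.88 and 0.865 CPM at EOS (log2 fold change -3.12, adjusted p = 0.131) and Vcam1, an adhesion molecule of inflamed endothelium, 59.8, 27.2 and 33.1 CPM and 19.3 and 15.9 CPM (adjusted p = 0.242). In the list of monocyte chemokines and receptors, which holds Ccl12, 3 of 14 genes had both EOS tumors below all D14 tumors (17.4% of all genes). There 5 log2 fold changes were positive, and DESeq2 called 2 genes lower. The median of that list was -0.41, between -1.45 without EOS mouse 9 and 0.10 without EOS mouse 13. Ngp and Ltf, granule genes of neutrophil precursors, stood at 1.60, 1.88 and 1.62 CPM and 1.75, 1.32 and 1.02 CPM on D14 and at 0.348 and 0.447 CPM and 0.159 and 0.391 CPM at EOS (adjusted p = 0.132 and 0.200). Of the 6 tested genes of their list, 3 had both EOS tumors below all D14 tumors (17.4% of all genes), 1 log2 fold change was positive, and DESeq2 called 2 lower. In the mature neutrophil list 8 of 11 log2 fold changes were positive, with 0 calls by edgeR or DESeq2. Its median was 0.84, between -1.68 without EOS mouse 9 and 1.67 without EOS mouse 13. Tcf7, a transcription factor of naive and memory-like T cells, measured 33.7, 32.7 and 34.9 CPM and 15.6 and 18.6 CPM (log2 fold change -0.98, adjusted p = 0.104), beside -2.51 for Cd3e. Gas6, the ligand of the receptor kinases AXL, MERTK and TYRO3, measured 22.3, 10.8 and 12.05 CPM and 3.26 and 6.20 CPM (log2 fold change -1.67, adjusted p = 0.209).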
